A study of Mus musculus with 4 samples.

Results

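The genes described here are the machinery of regulated cell death: the BCL2 family, the caspases and their inhibitors, the death receptors with their adaptors, and the executioners of necroptosis and pyroptosis. The set holds 40 genes named by symbol, found among 23771 mouse genes on the array through the RefSeq transcript that each probe is named for. All 40 had a probe, 68 probes in all, and 35 genes were bright enough to be tested. The cells were S-180, a transplantable mouse sarcoma line grown in medium with serum. Cells with fluoxetine, an antidepressant that blocks the serotonin transporter, had 20 µM of it for 12 h (2 arrays), and control cells were cultured for the same time without it (2 arrays). The labels call the replicates biological without saying whether cultures were separate, so a p-value here reflects how far these samples differ, which may be technical. RNA was labelled with Cy3 and read on 1-colour Agilent arrays, 1 array per sample.

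In the mitochondrial pathway, BH3-only proteins sense damage and release the pore formers of the BCL2 family from the grip of survival proteins such as BCL2, BCL-XL and MCL1. Cytochrome c then leaves mitochondria and joins APAF1 to activate caspase 9, while SMAC and HTRA2 leave as well and block the inhibitor of apoptosis proteins (IAPs). Death receptors recruit adaptors and caspase 8 at the plasma membrane. Where caspase 8 is held back, RIPK1 and RIPK3 can activate MLKL, which ruptures the membrane in necroptosis, and cleaved gasdermins form the pores of pyroptosis.

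The 75th percentile of the processed signal over non-control spots was 554 and 643 on the fluoxetine arrays and 675 and 631 on the control arrays. Between 51.7% and 53.5% of these spots were well above background on each array, and the 4 arrays limit the precision of every value. Relative signal below means signal scaled so that the 75th percentile over probes of each array is 100. Before scaling, that percentile over probes was 356 and 419 on the fluoxetine arrays and 449 and 415 on the control arrays. Relative signal is compared between arrays for 1 probe, never between probes. A gene is represented by its brightest kept probe. Changes are log2 values, fluoxetine minus control, ± the standard error from limma with 2 arrays per group. A gene was called when its adjusted p in limma was under 0.05 over all 13539 tested genes, and only called genes are described as rising or falling. For a single gene, an exact two-sided permutation test of 2 arrays against 2 cannot go below 0.333. All 4 arrays shared 1 slide and 1 scan, and the place of an array on the slide cannot be told apart from its group. Of the 15 mesenchymal markers looked at, 10 were well above background on both fluoxetine arrays and 11 on both control arrays, with Vim, S100a4 and Cd44 among them and Thy1, Col3a1, Pdgfrb and Snai2 not. Of 7 epithelial markers, 5 were well above background on both fluoxetine arrays and 4 on both control arrays, with Epcam, Krt8 and Krt18 in both counts. Among these 2 lists, Krt14 (−2.15 ± 0.11), Col1a2 (−1.99 ± 0.17, not well above background on both fluoxetine arrays) and Sparc (−0.62 ± 0.074) were called lower and none higher, and their part in the members' changes was not tested. Of 5 endothelial markers, 1 was in each group, Pecam1.

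After fluoxetine, Bcl2l1, Casp9, Birc3, Ripk3, Gsdmd and Casp4 rose and Bok and Diablo fell. All of these changes were under 2-fold. The other 27 tested members did not pass the test, among them Bcl2, Mcl1, Bcl2l11, Bid, Bak1, Apaf1, Casp8, Xiap, Cflar, Ripk1 and Mlkl. The 8 called members make 22.9% of the 35 tested, against 27.0% of all tested genes. By direction, 6 members rose, where 16.8% of all tested genes were called higher, and 2 fell, where 10.2% were called lower. With quantile or median scaling, Htra2 and Casp2 were called lower as well, giving 6 higher and 4 lower, and with background correction by normexp the counts were 5 and 3. With dim probes included in the fit, limma called 0 members, and 10 had an unadjusted p under 0.05. The median change was 0.043 over the tested members and 0.057 over all tested genes. The median size of the change, whatever its sign, was 0.27 over both. None of the 35 members changed 2-fold or more, against 6.38% of all tested genes. An unadjusted p under 0.05 in limma was found for 14 of 35 members, against 44.0% of all tested genes. A change above 0 was found for 20 of 35 members, against 55.7% of all tested genes. Groups did not overlap for 29 of 35 members, against 72.5% of all tested genes. In bulk RNA, fewer cells expressing a gene and less RNA per cell cannot be told apart.

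**Figure D1:**
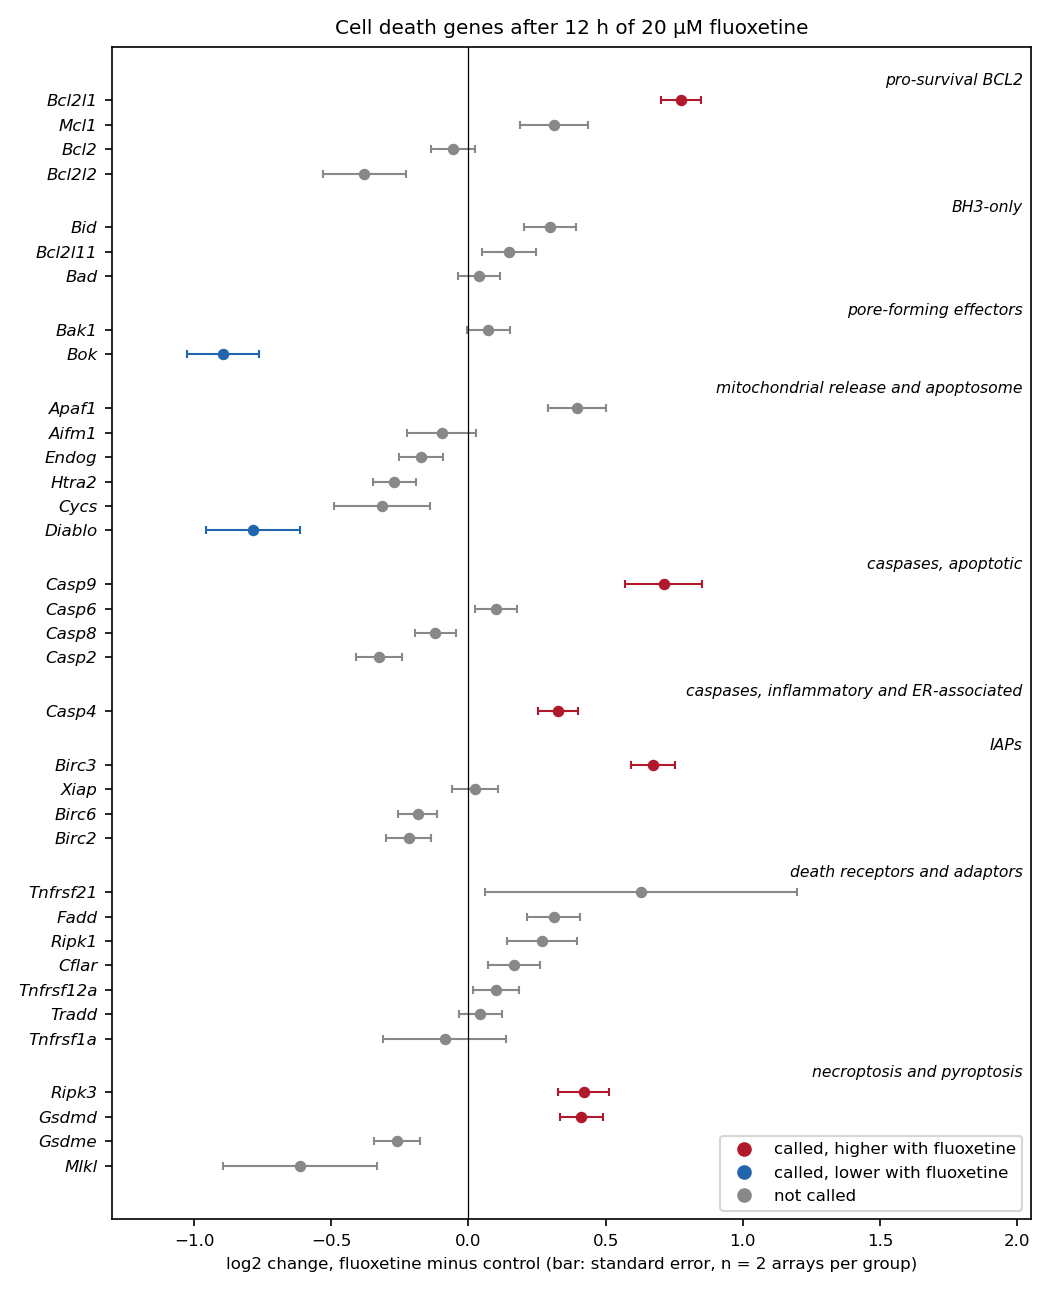
Change of each tested member by role, on a log2 scale as fluoxetine minus control, with its standard error as a bar (2 arrays per group). Red marks the 6 members called higher, blue the 2 called lower and grey the 27 not called, and every point lies between −0.90 and 0.77.

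**Figure D2:**
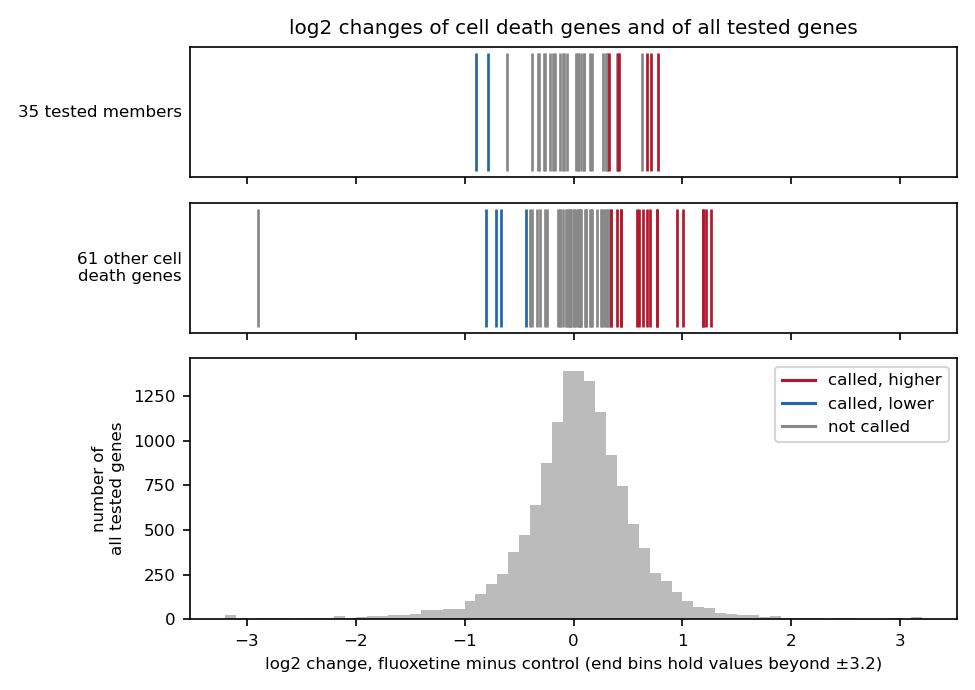
Changes on the log2 scale (fluoxetine minus control) of the 35 tested members in the top strip, of 61 other tested cell death genes in the middle strip, and of all 13539 tested genes as a histogram of gene numbers below. The members lie between −0.90 and 0.77, and the middle strip reaches 1.26 on the higher side and −2.89 on the lower side, the last being Il1b, which was not called.

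These calls rest on few arrays. Limma called 1 of the 35 members without control 1 (Bcl2l1) and 4 without control 2 (Bcl2l1, Bok, Diablo and Birc3). It called 0 without fluoxetine 1 and 0 without fluoxetine 2, where 9 and 11 members had an unadjusted p under 0.05. Over all tested genes, these 4 fits called 989, 2660, 0 and 0 genes, and the fits that called 0 had 4070 and 4535 genes with an unadjusted p under 0.05. All 8 called members kept their direction in each of these 4 fits.

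Of the 4 pro-survival BCL2 genes, 1 rose and 3 did not pass. Bcl2l1 encodes BCL-XL, which holds BAX and BAK in check at the mitochondrial outer membrane, and by splicing also the shorter, pro-apoptotic BCL-XS. Its relative signal was 2852 and 2894 on the fluoxetine arrays, against 1655 and 1706 on the control arrays. The fluoxetine arrays lay close together and well above both control arrays. The change was 0.77 ± 0.073, which is 1.71-fold (adjusted p = 0.0129), and it ran from 0.75 to 0.80 when arrays were left out in turn.

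Bcl2l1 had 5 kept probes, and they did not move alike. The brightest one and another that the array design assigns to the same transcript both rose. The second of these read 66.0 and 64.2 on the fluoxetine arrays, against 30.2 and 34.1 on the control arrays, a change of 1.02 ± 0.10 (adjusted p = 0.0156 over all kept probes). The 3 remaining probes, named for other transcripts of the gene, changed by 0.22, 0.052 and 0.084 and did not pass. In that order they read 25.7 and 28.4, 26.6 and 22.3, and 8.18 and 7.08 on the fluoxetine arrays. On the control arrays they read 23.2 and 23.4, 23.5 and 23.4, and 6.84 and 7.54. All 3 were dim, and the part of low signal or of the transcript in their changes was not tested. Differences between probes were tested within each array. The brightest probe rose more than the 2 with changes of 0.052 and 0.084, by 0.72 ± 0.14 and 0.69 ± 0.13 (adjusted p = 0.0491 and 0.0485 over 6350 pairs), and the difference from the one at 0.22 did not pass (adjusted p = 0.0512). Averaged over its kept probes, Bcl2l1 changed by 0.43 and was still called (adjusted p = 0.0311).

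Bcl2, the founding member of the family, had a relative signal of 105 and 103 on the fluoxetine arrays, against 105 and 112 on the control arrays. The groups overlapped, and the change of −0.057 ± 0.08 did not pass (adjusted p = 0.617). Its 95% interval ran from −0.28 to 0.16. Mcl1, a short-lived survival protein, read 2979.7 and 2889.7 on the fluoxetine arrays, against 2138 and 2616 on the control arrays. Both fluoxetine arrays were above both control arrays, but control 2 lay near them, and the change of 0.31 ± 0.13 did not pass (adjusted p = 0.138, interval −0.034 to 0.66). With normexp it was 0.11. Bcl2l2, which encodes BCL-W, changed by −0.38 ± 0.15 (adjusted p = 0.135).

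Promoter windows of 3 members that rose are printed here and below: Bcl2l1 and Casp4 for their motif match, and Birc3 as one without. Windows hold the 250 bases before each RefSeq gene start (build GRCm38.p6), and 36 of the 40 members had at least 1, with 47 windows in all. They were searched on both strands for the NF-kappaB motif, found in 7.25% of the 32851 windows of all genes, the AP-1 motif TGANTCA (6.75%), the cyclic AMP response element TGACGTCA (1.55%), the GAS motif TTCNNNGAA (7.02%) and the ATF4-CHOP composite core TGATGNAA (3.45%). The NF-kappaB pattern was GGGRNNYYCC, where R is A or G, Y is C or T and N is any base. NF-kappaB is known, as background, to act on several survival and inflammatory genes, Birc3 among them. Of the 6 members that rose, 5 had a window, and the NF-kappaB motif was in those of Bcl2l1 and Casp4. The windows of Birc3, Casp9 and Ripk3 held none of the 5 motifs, and the last pair are not printed. Over all members with a window, 3 of 36 held the NF-kappaB motif, in 4 of the 47 windows. The third was Aifm1, which did not pass, and the Casp4 windows overlap and share their matches. The other motifs were found only in members that were not called or not tested. These were Cycs and Birc2 for the cyclic AMP response element, Tnfrsf1a, Ripk1 and Casp12 for GAS, and Hrk for ATF4-CHOP. No member held the AP-1 motif. The 7.25% counts windows and not genes, and a gene with several windows can match more easily. Neither member that fell held any of the 5 motifs. A match is a string of letters and not evidence of binding. The Bcl2l1 window with the match is 1 of 3 for this gene (chr2:152830718-152830967, reverse strand), with the NF-kappaB match in capitals, 5′ to 3′:
Bcl2l1: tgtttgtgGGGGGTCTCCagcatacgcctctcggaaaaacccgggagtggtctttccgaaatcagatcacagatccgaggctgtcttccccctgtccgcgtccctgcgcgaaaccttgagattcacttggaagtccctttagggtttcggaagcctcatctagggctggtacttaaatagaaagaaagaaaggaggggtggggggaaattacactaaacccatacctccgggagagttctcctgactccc

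Of 6 BH3-only genes, 3 were tested and limma called 0, while 1 (Bid) had an unadjusted p under 0.05. Bcl2l11 encodes BIM, which binds all the survival proteins, and its relative signal was 318 and 282 on the fluoxetine arrays, against 262 and 278 on the control arrays. Control 2 lay just under the lower fluoxetine array, and the change was 0.15 ± 0.099 (adjusted p = 0.311, interval −0.12 to 0.42). Its 3 other kept probes disagreed: 1 fell (−0.69 ± 0.13, adjusted p = 0.0355 over all kept probes) and the others changed by 0.35 and 0.066 without passing. The probe that fell read 18.5 and 22.6 on the fluoxetine arrays, against 32.8 and 33.2 on the control arrays, with no overlap between groups. Its difference from the brightest probe did not pass (0.84 ± 0.19, adjusted p = 0.06 over pairs). Both of these probes are named for the same BIM transcript.

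Bid links death receptors to mitochondria once caspase 8 cuts it. Its relative signal was 933 and 923 on the fluoxetine arrays, against 709 and 805 on the control arrays. The fluoxetine arrays nearly coincided and stood above both controls, and the change of 0.30 ± 0.096 did not pass (adjusted p = 0.0904, interval 0.033 to 0.56), though Bid was called higher with a variance trend over intensity (adjusted p = 0.0328). Bad, whose binding to BCL-XL is controlled by phosphorylation, changed by 0.038 ± 0.076 (adjusted p = 0.727), with the opposite sign under normexp, quantile and median scaling. Bik, Bmf and Hrk, BH3-only genes known for induction in particular tissues or stresses, were not tested, since none of their probes passed the background mark on both fluoxetine or both control arrays. The signal of Bik and that of 1 probe each of Bmf and Hrk were not well above background on any array. The other Hrk probe passed on control 1 alone.

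Among the pore formers, Bak1 did not pass and Bok fell. BAK, together with BAX, opens the outer mitochondrial membrane. Bak1 had a relative signal of 454 and 466 on the fluoxetine arrays, against 449 and 425 on the control arrays, with a change of 0.073 ± 0.078 (adjusted p = 0.51, interval −0.14 to 0.29). Bok encodes a BAX-like protein that resides mainly at the endoplasmic reticulum and escapes the control of the survival proteins. It read 159.9 and 193 on the fluoxetine arrays, against 345 and 309.8 on the control arrays. Both fluoxetine arrays lay far below both control arrays. The change was −0.90 ± 0.13, or 0.538 times the control level (adjusted p = 0.0209), the largest fall among the tested members, and it ran from −1.03 to −0.76 when arrays were left out. Bok had 1 probe.

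Of the 6 genes for mitochondrial death factors and the apoptosome, 1 fell and 5 did not pass. Diablo encodes SMAC, which frees caspases from the IAPs. Its brightest probe read 193 and 234 on the fluoxetine arrays, against 414 and 324 on the control arrays. The groups did not overlap, though the arrays within each group were spread. The change was −0.79 ± 0.17 (adjusted p = 0.0414). The other kept probe, named for the same transcript, read 40.0 and 44.6 on the fluoxetine arrays, against 36.7 and 39.7 on the control arrays, a change of 0.15 ± 0.10 that did not pass and had the opposite sign. The difference between the probes did not pass (−0.93 ± 0.19, adjusted p = 0.0527 over pairs). Averaged over both probes the change was −0.32 and was not called (adjusted p = 0.104), so the fall of Diablo holds for 1 of its 2 probes.

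Apaf1, the scaffold of the apoptosome, read 245 and 247 on the fluoxetine arrays, against 173 and 202 on the control arrays. Its change of 0.39 ± 0.11 was just outside the threshold (adjusted p = 0.0617, interval 0.11 to 0.68), and Apaf1 was called higher under 2 of 11 other settings. The second Apaf1 probe, on the same transcript, was dim. It read 11.2 and 10.6 on the fluoxetine arrays, against 13.2 and 15.7 on the control arrays, a change of −0.39 ± 0.12. The difference between the 2 probes passed (0.79 ± 0.11, adjusted p = 0.0377 over pairs), and the part of low signal in it was not tested. Their mean change was 0.00023 (adjusted p = 0.999). Cycs, cytochrome c, had the changes −0.32 and −0.43 on its 2 probes. Its brightest probe read 8945.5 and 8270.0 on the fluoxetine arrays, against 9176 and 12486.5 on the control arrays, so that control 2 stood apart (adjusted p = 0.24). Htra2, a mitochondrial serine protease that also blocks IAPs, changed by −0.27 ± 0.079 (adjusted p = 0.0744) and was called lower under 4 of 11 other settings, and its 2 other probes by −0.024 and 0.068. Endog, a mitochondrial nuclease (−0.17 ± 0.081), and Aifm1, the apoptosis-inducing factor (−0.098 ± 0.13), did not pass either (adjusted p = 0.181 and 0.582).

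**Figure D3:**
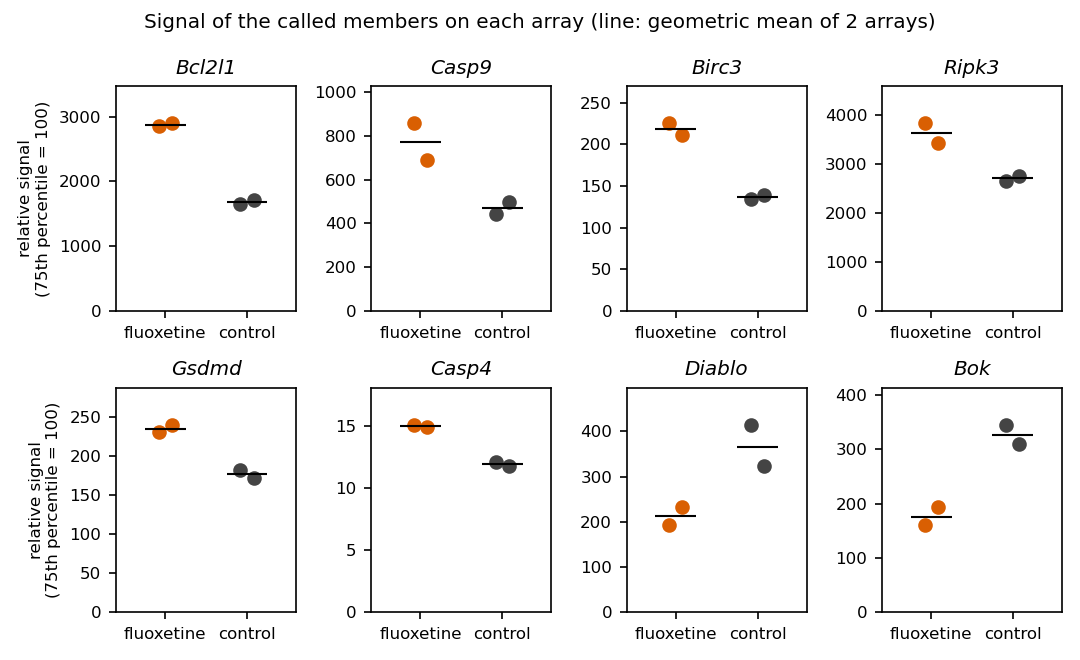
Relative signal (75th percentile of each array = 100, linear axes from 0) of the 8 called members on each of the 2 fluoxetine arrays, left, and the 2 control arrays, right, with the geometric mean as a line. The groups do not overlap for any of the 8, and the arrays within a group lie farthest apart for Diablo and Casp9.

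Of the 4 apoptotic caspase genes, Casp9 rose and 3 did not pass. Caspase 9 is the initiator that the apoptosome activates. The brightest Casp9 probe read 857 and 692 on the fluoxetine arrays, against 445 and 497 on the control arrays. Both fluoxetine arrays were above both controls, with fluoxetine 1 the highest. The change was 0.71 ± 0.14 (adjusted p = 0.0349), and it ran from 0.56 to 0.87 when arrays were left out. The second probe, named for the same transcript, read 9.18 and 9.92 on the fluoxetine arrays, against 11.9 and 10.8 on the control arrays, a change of −0.25 ± 0.10 that did not pass. The difference between the probes did not pass (0.96 ± 0.20, adjusted p = 0.0549 over pairs). Averaged over both, Casp9 changed by 0.23 and was not called (adjusted p = 0.096).

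Casp8, the initiator caspase of death receptors, had a relative signal of 634 and 607 on the fluoxetine arrays, against 672 and 677.5 on the control arrays. The change of −0.12 ± 0.075 did not pass (adjusted p = 0.278), and its interval ran from −0.33 to 0.084. Casp2, an initiator linked to stress and chromosome missegregation, was just outside the threshold (−0.33 ± 0.082, adjusted p = 0.0555) and was called lower under 5 of 11 other settings of the processing. Casp6, an executioner caspase, changed by 0.10 ± 0.078 (adjusted p = 0.374).

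Among the inflammatory and endoplasmic reticulum-associated caspases, only Casp4 could be tested, and it rose. Casp4 encodes the mouse caspase known as caspase 11, which binds bacterial lipopolysaccharide inside cells and cuts gasdermin D. Its relative signal was 15.1 and 14.9 on the fluoxetine arrays, against 12.1 and 11.8 on the control arrays. The change was small (0.33 ± 0.072, 1.25-fold) with both arrays of each group nearly equal after scaling (adjusted p = 0.0425). The probe was dim. Before scaling, its processed signal was 53.8 and 62.3 on the fluoxetine arrays, against 54.1 and 49.2 on the control arrays, where the groups overlapped. In the fit over all kept probes, the same probe did not pass (adjusted p = 0.0559), and Casp4 was not called with normexp (0.25, adjusted p = 0.134) or with a variance trend over intensity (adjusted p = 0.28). Casp1, the inflammasome caspase, and Casp12, associated with the endoplasmic reticulum, were not well above background on any array. The first of 2 overlapping Casp4 windows is shown because it holds 3 NF-kappaB matches, 2 of them overlapping (chr9:5308599-5308848, forward strand), with the matches in capitals, 5′ to 3′:
Casp4: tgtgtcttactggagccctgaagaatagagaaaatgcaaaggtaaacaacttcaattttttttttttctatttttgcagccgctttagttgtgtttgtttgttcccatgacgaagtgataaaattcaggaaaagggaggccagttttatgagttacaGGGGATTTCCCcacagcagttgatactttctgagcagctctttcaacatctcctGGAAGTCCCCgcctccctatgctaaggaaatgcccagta

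Of the 4 IAP genes, Birc3 rose and 3 did not pass. Birc3 encodes cIAP2, a ubiquitin ligase of tumour necrosis factor (TNF) receptor complexes. Its relative signal was 225 and 211 on the fluoxetine arrays, against 134.5 and 139 on the control arrays. The groups were far apart relative to the spread within them. The change was 0.67 ± 0.08, or 1.59-fold (adjusted p = 0.0162), and it ran from 0.63 to 0.72 when arrays were left out. Birc3 had 1 probe. Its window (chr9:7873171-7873420, reverse strand) held none of the 5 motifs, and is shown in lower case, 5′ to 3′:
Birc3: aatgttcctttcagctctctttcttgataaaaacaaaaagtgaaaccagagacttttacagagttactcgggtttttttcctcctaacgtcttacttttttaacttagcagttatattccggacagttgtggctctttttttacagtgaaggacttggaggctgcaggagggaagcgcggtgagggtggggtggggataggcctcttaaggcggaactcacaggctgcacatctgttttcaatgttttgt

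Xiap, the IAP that inhibits caspases directly, read 1111 and 1084 on the fluoxetine arrays, against 1036 and 1126 on the control arrays. The groups overlapped, and the change of 0.023 ± 0.084 did not pass (adjusted p = 0.852, interval −0.21 to 0.25). Its sign differed between scalings: it was −0.035 with quantile normalization and −0.018 with median scaling. The dimmer Xiap probe changed by −0.39 ± 0.18 and did not pass. Birc2, which encodes cIAP1, the close relative of cIAP2, changed by −0.22 ± 0.083 (adjusted p = 0.125). Birc6 encodes a giant IAP with a ubiquitin-conjugating domain, and its 3 probes, all named for the same transcript, had changes of both signs. The brightest one changed by −0.19 ± 0.072 and did not pass (adjusted p = 0.131). A second read 144 and 146 on the fluoxetine arrays, against 82.3 and 74.6 on the control arrays, and it rose by 0.89 ± 0.094 (adjusted p = 0.0165 over all kept probes). The difference between those probes passed (−1.08 ± 0.11, adjusted p = 0.0315 over pairs). The third changed by 0.24, its difference from the brightest did not pass (adjusted p = 0.0727 over pairs), and the mean over all 3 was 0.31 (adjusted p = 0.0507).

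None of the 7 death receptor and adaptor genes was called by limma on its brightest probe, while 1 of them, Fadd, had an unadjusted p under 0.05. Fadd brings caspase 8 to the receptors and changed by 0.31 ± 0.097 (adjusted p = 0.0846). It was called higher with a variance trend over intensity (adjusted p = 0.0492), and with normexp the change was 0.19. Tradd, the adaptor of TNF receptor 1, changed by 0.043 ± 0.079 (adjusted p = 0.702), with the opposite sign under quantile scaling. Cflar encodes c-FLIP, the inhibitor of caspase 8 activation, and read 1188.5 and 1059.7 on the fluoxetine arrays, against 1019 and 981 on the control arrays. The change was 0.17 ± 0.094 (adjusted p = 0.245, interval −0.092 to 0.42), and its 4 other kept probes ran from −0.26 to 0.10 without passing. Ripk1, the kinase that switches between survival and death signalling, read 380.3 and 323 on the fluoxetine arrays, against 272 and 311 on the control arrays. Its change of 0.27 ± 0.13 did not pass (adjusted p = 0.189, interval −0.086 to 0.62), and the second probe changed by 0.26.

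Tnfrsf1a encodes TNF receptor 1. Its brightest probe read 629 and 954 on the fluoxetine arrays, against 849.6 and 796.5 on the control arrays, with the fluoxetine arrays on both sides of the controls (change −0.087 ± 0.22, adjusted p = 0.788). The second probe, on the same transcript, read 45.3 and 42.6 on the fluoxetine arrays, against 28.2 and 23.9 on the control arrays. That probe rose by 0.76 ± 0.12 (adjusted p = 0.0264 over all kept probes), and the difference between the probes did not pass (−0.85 ± 0.26, adjusted p = 0.0988 over pairs). Tnfrsf12a, the receptor FN14 for the cytokine TWEAK, changed by 0.10 ± 0.083 (adjusted p = 0.399). Tnfrsf21, death receptor 6, changed by 0.63 ± 0.57 with a spread too wide to read (interval −0.94 to 2.20).

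**Figure D4:**
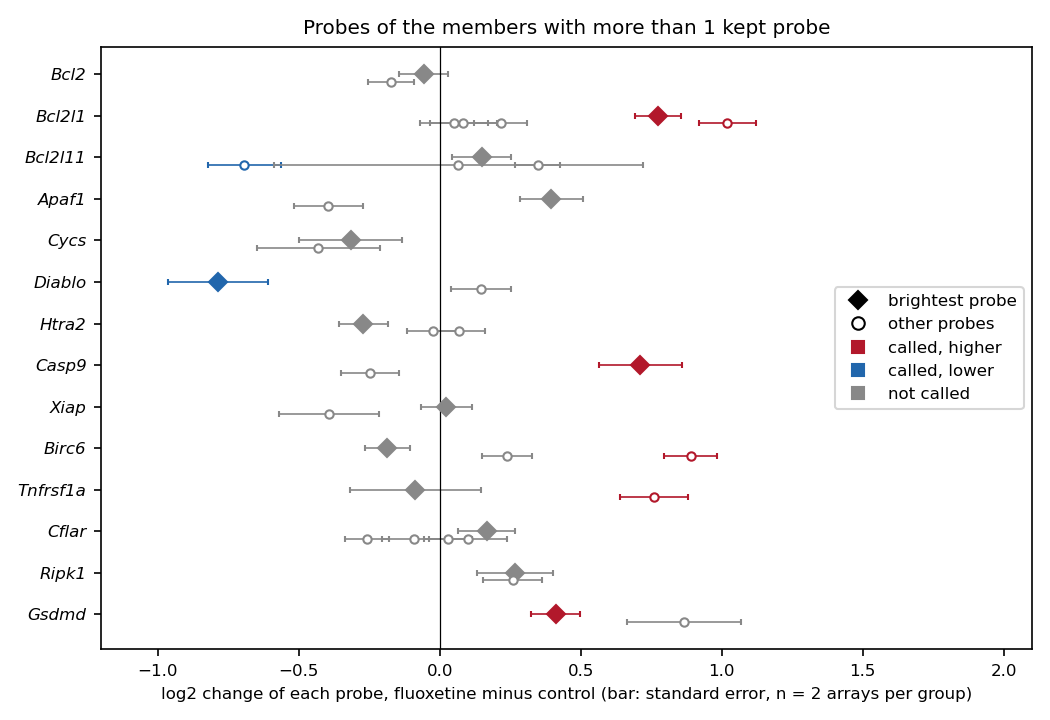
Change of each kept probe (log2, fluoxetine minus control, standard error as a bar, 2 arrays per group) for the 14 members with more than 1 kept probe. Diamonds are the brightest probe and open circles the others, and for Bcl2l11, Birc6 and Tnfrsf1a the probe that passed is an open circle while the diamond is grey.

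In the necroptosis and pyroptosis group, Ripk3 and Gsdmd rose and Mlkl and Gsdme did not pass. RIPK3 is the kinase that phosphorylates MLKL. Ripk3 had a relative signal of 3833 and 3436 on the fluoxetine arrays, against 2666 and 2760.3 on the control arrays. Both fluoxetine arrays were above both controls, a change of 0.42 ± 0.092 or 1.34-fold (adjusted p = 0.0416). Over all kept probes, the same probe did not pass (adjusted p = 0.0521). Mlkl, the pore former downstream of RIPK3, read 92.9 and 152.5 on the fluoxetine arrays, against 202 and 164 on the control arrays. The fluoxetine arrays were lower but spread, and the change of −0.61 ± 0.28 did not pass (adjusted p = 0.175, interval −1.39 to 0.16). It was −0.26 without fluoxetine 1 and −0.97 without fluoxetine 2, and with normexp Mlkl was called lower (−0.63, adjusted p = 0.0445).

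Gsdmd encodes gasdermin D, the pore former of pyroptosis. It read 231 and 240.2 on the fluoxetine arrays, against 182 and 172 on the control arrays, with a change of 0.41 ± 0.079 or 1.33-fold (adjusted p = 0.0333). Its second probe changed by 0.87 ± 0.20 and narrowly did not pass (adjusted p = 0.0509 over all kept probes), and averaged over both probes the change was 0.64 (adjusted p = 0.0373). Gsdme encodes gasdermin E, another pore former that caspases can cut. It read 146 and 136 on the fluoxetine arrays, against 164 and 174 on the control arrays, a change of −0.26 ± 0.084 that did not pass (adjusted p = 0.0918, interval −0.49 to −0.027). Casp4, Ripk3, Gsdmd and Birc3 are also expressed by leukocytes. Among 15 markers of leukocytes, 6 passed the background mark on both fluoxetine arrays and 7 on both control arrays, and Ptprc, Adgre1 and Lyz2 were in neither count. Their summed relative signal was 7432 and 6571.5 on the fluoxetine arrays, against 3961 and 4286 on the control arrays, a sum that weighs bright probes most. Of these markers, Cd68 (1.39 ± 0.12) and Cd3e (0.52 ± 0.097) were called higher and Itgam (−1.96 ± 0.073) lower, and the other 4 that were tested, Csf1r, Cd14, Cd4 and Ms4a1, had changes below 0 that did not pass. The part of these markers in the rises of the 4 genes was not tested. Over the mesenchymal list the same sum was 12251 and 12157 on the fluoxetine arrays, against 13883 and 12830 on the control arrays. For the epithelial list it was 18535 and 18038.5 on the fluoxetine arrays, against 21132 and 22418 on the control arrays. The endothelial sum was 28.8 and 34.4 on the fluoxetine arrays, against 25.9 and 30.2 on the control arrays.

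Across the 14 members with more than 1 kept probe there were 24 pairs of the brightest probe with another one. The change differed between the probes of a pair in 4 of 24 (2 for Bcl2l1, 1 for Apaf1 and 1 for Birc6), against 11.2% of 6350 pairs of all genes. With any 1 array left out, 0 of the 6350 pairs passed. The 2 probes had changes of opposite sign in 11 of 24 pairs, or 45.8%, against 37.3% of all pairs. Of the 59 kept probes of members, 7 rose and 3 fell. Of all kept probes 25.6% were called, 12.6% higher and 13.0% lower. Of the 10 called probes of members, 4 were not the brightest probe of their gene: 1 each for Bcl2l1, Bcl2l11, Birc6 and Tnfrsf1a. Without control 1 this probe fit called 70 of all kept probes, without control 2 it called 4620, and without either fluoxetine array 0. Probe sequences were not used here, so the stretch of transcript that each probe reads is not given.

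Other genes of the same pathways were looked at as a second list. Of 86 further genes listed for these pathways, 61 were tested. In that list 17 rose, 4 fell and 40 did not pass (34.4% called, against 27.0% of all tested genes). The median change was 0.10, against 0.057 over all tested genes. This list was chosen with earlier results of these data known, so its share is descriptive and not a result about the pathways. Bbc3, which encodes the BH3-only protein PUMA, read 469.7 and 481 on the fluoxetine arrays, against 199 and 218 on the control arrays, and it rose by 1.19 ± 0.086 (adjusted p = 0.0105). The TNF receptor family members Tnfrsf1b, TNF receptor 2 (1.26 ± 0.11), and Ngfr, the p75 neurotrophin receptor (1.19 ± 0.09), rose more than 2-fold. Tnfsf12, the ligand TWEAK of FN14, rose by 1.01 ± 0.19, and its relative signal was 25.8 and 20.5 on the fluoxetine arrays, against 10.0 and 13.1 on the control arrays. With normexp its rise was 0.55 (adjusted p = 0.012). Traf6, a ubiquitin ligase of interleukin 1 receptor signalling, rose by 0.70 ± 0.092.

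The death-associated kinase gene Dapk3 (1.21 ± 0.24) and Dap, a death-associated protein gene (0.95 ± 0.096), rose too. Dapk3 read 96.4 and 92.4 on the fluoxetine arrays, against 32.6 and 50.9 on the control arrays, which were spread. With normexp its rise was 0.85, and it was called under 9 of 11 other settings. Bnip3l and Bnip3 encode BH3-containing mitochondrial proteins that are known as mitophagy receptors, and they rose by 0.77 ± 0.082 and 0.67 ± 0.11. Bnip3 was called under 9 of 11 other settings. Parp1, a DNA repair enzyme that caspases cut, rose by 0.77 ± 0.078. Bcl2l12 (−0.72 ± 0.099) and Bcl2l15 (−0.80 ± 0.12), more distant BCL2 relatives, fell, and Bcl2l15 was not called with the mean of its kept probes (adjusted p = 0.0603). For these 12 genes adjusted p lay between 0.0105 and 0.0339. Bax, named here after its values were seen because it encodes the partner of BAK, did not pass (−0.097 ± 0.079, adjusted p = 0.398). Without control 1 or control 2, 10 and 16 genes of this list were called, and 0 without either fluoxetine array.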

How the data were processed

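The 4 arrays, 2 per group, were analysed from scanner output. Per the file headers, the authors extracted linear spot intensity with Agilent Feature Extraction 12.1.0.3, with background removed and no scaling between arrays. Its deposited marks (yes or no) for spots above background or non-uniform are other values. What the authors did afterwards is not given here.

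Here, spots that were controls or non-uniform were dropped (47 of 56605 probes lost), spots of a probe were averaged on the log2 scale, and the 75th percentile over probes of each array was subtracted. Symbols came from RefSeq transcripts of assembly GRCm38.p6, matched without versions: 34645 probes matched 1 symbol. The files' grid names another build (mm9), so no gene coordinates are printed except those of the RefSeq windows. A probe was kept if well above background on both arrays of a group (28270 probes), and a gene was its brightest kept probe (13539 genes). The test was limma 3.58.1 in R 4.3.3 (lmFit, eBayes, group as the only term, Benjamini-Hochberg). Probes of a gene were compared through their within-array log2 difference, fitted the same way. The fits were tested on simulated data. With 200 changed genes among 13539, the gene fit recovered 0.15% of log2 changes of 0.5, 34.3% of 1 and 82.7% of 2. Far fewer genes changed there than were called here, so these shares need not hold for these data.

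The members, the lists and the rule for naming genes (all members, with values per array for called and key ones, and up to 12 called genes of the wider list) were chosen with earlier results of these data known. The scanner files hold no mean spot signal, so the median was used for the normexp alternative. The counts of the wider list include 1 gene that is not reported here.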

Additional observations from a re-analysis of the deposited data

Results flagged for a closer look

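Bmf, a BH3-only gene too dim to be tested, had 1 probe that was well above background on fluoxetine 1, with a relative signal of 12.7, and on none of the other arrays (3.14 on fluoxetine 2, against 2.15 and 1.97 on the control arrays). It was singled out because a signal appeared in a treated sample outside the tested genes and above the controls. Its other probe read 4.66 and 3.56 on the fluoxetine arrays, against 1.39 and 3.03 on the control arrays, and was not well above background on any.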

How the results depend on the processing

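Main counts were 3653 genes, 8 members, 7241 kept probes, 712 probe pairs and 21 genes of the wider cell death list. Under background correction by normexp, quantile or median scaling, the 75th percentile over spots (added after seeing the data), probes above background on all arrays only, the mean of kept probes, non-uniform spots kept, and an intensity trend with robust variances, members called ran from 6 to 12 and every count run stayed within 1.5 times its main value. Casp9 and Diablo were not called with the mean of kept probes, and Casp4 was not called with normexp or with the variance trend. With dim probes included, limma called 0 in each of the 5 counts, with 5272 genes and 10 members at an unadjusted p under 0.05; more genes were tested there. With the replicate number as a block, limma called 1859 genes, 3 members (Bcl2l1, Bok and Birc3), 1281 kept probes, 0 pairs and 13 genes of the wider list. The labels do not say that equal numbers share a culture, and same-numbered arrays did not deviate together (r = −0.117 over 13539 genes). With crossed numbers, added after seeing the data, 2621 genes, 6 members, 3475 kept probes, 0 pairs and 15 genes of the wider list were called. Leaving out each array in turn gave 0 to 2660 genes, 0 to 4 members, 0 to 4620 kept probes, 0 pairs (0 to 0) and 0 to 16 genes of the wider list; the lone array of a group is then assumed to vary like the other group. The cause of these losses beyond fewer samples was not tested.

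Called members kept their sign in every alternative. The changes of sign all belong to members that did not pass in either fit. They were Bad (−0.023 with normexp, −0.025 with quantile scaling, −0.00308 with median scaling), Xiap (−0.022, −0.035 and −0.018 in the same order, −0.18 with the mean of kept probes and −0.00926 with the percentile over spots) and Tradd (−0.014 with quantile scaling). With the mean of kept probes they were Bcl2l11 (−0.033), Birc6 (0.31), Tnfrsf1a (0.34) and Cflar (−0.00994). With an array left out they were Aifm1 (−0.24 to 0.049), Xiap (−0.037 to 0.083), Tnfrsf1a (−0.39 to 0.21) and Tnfrsf21 (−0.12 to 1.38). Probe pairs have no value with the mean of kept probes, and the slide block was not run, as there was 1 slide. Dim probes such as those of Casp4 and Tnfrsf21 limit what can be measured.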
